A study of Mus musculus with 6 samples.

Results

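Retinoid synthesis, binding and breakdown was examined through 8 genes, chosen by name as enzymes that make or clear retinoic acid and as retinoid binding proteins: Rdh10, Dhrs3, Aldh1a1, Aldh1a2, Aldh1a3, Cyp26b1, Crabp1 and Crabp2. The deposited table listed 22032 genes and held 7 of the 8; Aldh1a1 was not analysed here. Of these 7, 5 had a mean of at least 1 CPM (counts per 1e+06 reads of a scaled library size) over the 6 libraries and were among the 14740 genes tested, while Aldh1a2 and Aldh1a3 fell below. RNA was sequenced from mDE6, a mouse cell line, expressing a short hairpin RNA targeting Arl4c (shArl4c), the gene of a small GTPase, or a control hairpin (shControl, shluc in the table). Each group had 3 libraries, named here by the numbers in the table, shArl4c 2, 3 and 4 and shControl 1, 2 and 3. The labels give 1 hairpin group against Arl4c, so that lower Arl4c and off-target effects of that hairpin cannot be told apart, and they name neither the tissue of origin of the line nor separate cultures, so that p-values measure the spread between these libraries, which may be technical. The title of the series places it in tooth germ development and the differentiation of osteoblasts. Values written with ± are mean ± SD over n = 3 libraries per group.

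Retinoic acid is made from vitamin A (retinol) in a pair of oxidation steps. RDH10 turns retinol into retinaldehyde, DHRS3 turns retinaldehyde back into retinol, and the retinaldehyde dehydrogenases ALDH1A1, ALDH1A2 and ALDH1A3 turn retinaldehyde into retinoic acid, which binds the nuclear receptors RAR and RXR. CYP26 enzymes break retinoic acid down, and the cellular binding proteins CRABP1 and CRABP2 carry it, CRABP2 towards the receptors. Retinoic acid takes part in the patterning of teeth and jaws and in the differentiation of osteoblasts, and in zebrafish loss of cyp26b1 leads to excess bone.

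The libraries held 12316770 to 14976113 reads, so that 1 read was worth 0.0672 to 0.0827 CPM, and a count of 0 allows up to 0.202 to 0.248 CPM (3 reads, counting error only). Arl4c itself stood at 6.75, 7.42 and 6.89 CPM in shArl4c 2, 3 and 4, against 20.7, 21.0 and 20.1 CPM in shControl 1, 2 and 3. Across all genes, 36.9% of those tested passed limma's threshold of an adjusted p of 0.05, 18.9% higher and 18.0% lower in shArl4c, and 46.8% had groups that did not overlap. Library shArl4c 3 stood apart from its group: the chi-square per degree of freedom between its read counts and those of shArl4c 2 and 4 was 5.74 and 4.87, against 1.54 between shArl4c 2 and 4. Calls and counts of rises and falls that change without it are given both ways. Mesenchymal markers were at high levels in both groups, all 7 of 7 listed at 1 CPM or more, with a summed level of 18499 to 19338 CPM in shArl4c and 30488 to 31899 CPM in shControl. Most of that sum was Col1a1 (means of 10139 CPM in shArl4c and 17787 CPM in shControl) and Col1a2 (5240 and 9443 CPM). Prrx1 was also lower in shArl4c (585 and 1132 CPM), with groups that did not overlap. Vim averaged 2444 CPM in shArl4c and 2543 CPM in shControl, with overlapping groups. Twist1 averaged 45.4 CPM in shArl4c and 42.7 CPM in shControl, with overlapping groups. Pdgfrb (277 and 247 CPM) and Pdgfra (234 and 138 CPM) were higher in shArl4c, with groups that did not overlap. Of 9 epithelial markers 3 reached 1 CPM, with sums of 34.1 to 34.9 CPM in shArl4c and 19.7 to 21.3 CPM in shControl. Krt80 made up most of these (means of 24.5 CPM in shArl4c and 12.1 CPM in shControl), and Krt7 averaged 2.17 CPM in shArl4c and 2.04 CPM in shControl. Trp63 averaged 6.37 CPM in shArl4c and 5.17 CPM in shControl, with groups that did not overlap. Cdh1 had no read in any shArl4c library and 13 reads in all over the shControl libraries. Leukocyte markers (2 of 6 at 1 CPM or more) summed to 6.75 to 8.17 CPM in shArl4c and 4.80 to 5.31 CPM in shControl, endothelial markers (1 of 5) to 1.07 to 1.74 CPM and 1.48 to 2.07 CPM, and neuronal or glial markers (2 of 5) to 7.42 to 7.99 CPM and 10.5 to 12.0 CPM. The part of these shifts in the results that follow was not tested.

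Cyp26b1, which encodes the retinoic acid-degrading enzyme among the members, was 4.01-fold lower in shArl4c cells than in shControl cells. It stood at 6.10, 5.62 and 5.74 CPM in shArl4c 2, 3 and 4, against 21.6, 24.7 and 23.7 CPM in shControl 1, 2 and 3. The 3 shArl4c libraries lay close together and far below every shControl library. These values rest on 84, 75 and 75 reads in shArl4c and on 292, 367 and 287 reads in shControl. The means were 5.82 ± 0.248 CPM in shArl4c and 23.3 ± 1.60 CPM in shControl (SD, n = 3 each). On the scale of log2(CPM + 1), which understates changes at low levels, the fold change was -1.83 (SE 0.09, 95% interval -2.03 to -1.64, limma adjusted p = 1.03e-11). Cyp26b1 had the 158th smallest p and the 105th lowest fold change of the 14740 tested genes. A fall of at least 4-fold on the CPM scale, with limma's threshold passed, was seen in 176 genes, or 1.19%. Without shArl4c 3 the log2 fold change was -1.81. In bulk RNA, fewer cells expressing a gene and less RNA per cell cannot be told apart.

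The promoter windows of Cyp26b1 and Crabp1, the members that passed the test, are given below as RefSeq holds them (GRCm38.p6, an older build than the GRCm39 of the table), from 250 bases before to 50 bases after the annotated start. The data measure RNA and not binding at these sites. Capitals mark the motifs TATAAA and GGGCGG on either strand, which do not overlap each other here. The Cyp26b1 window is chr6:84593761-84594060 on the minus strand and the Crabp1 window is chr9:54764498-54764797 on the plus strand.
Cyp26b1: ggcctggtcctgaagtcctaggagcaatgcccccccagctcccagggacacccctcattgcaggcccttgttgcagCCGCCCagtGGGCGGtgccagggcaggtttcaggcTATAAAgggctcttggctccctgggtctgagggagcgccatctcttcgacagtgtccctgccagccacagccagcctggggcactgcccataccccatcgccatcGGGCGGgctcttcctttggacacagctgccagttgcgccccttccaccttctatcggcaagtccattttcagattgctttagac
Crabp1: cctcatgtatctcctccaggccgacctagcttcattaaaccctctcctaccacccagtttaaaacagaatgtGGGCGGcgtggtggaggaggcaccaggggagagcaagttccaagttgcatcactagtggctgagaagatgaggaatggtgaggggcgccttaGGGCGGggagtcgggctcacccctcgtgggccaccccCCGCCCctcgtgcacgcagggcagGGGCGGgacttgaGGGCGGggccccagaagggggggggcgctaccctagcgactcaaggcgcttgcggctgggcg
The Cyp26b1 window was 62.3% G or C and the Crabp1 window 65.0%. TATAAA was found in 13.6% of 32544 different promoter windows and GGGCGG in 35.9%. The windows were also searched on both strands for 4 forms of the motif that retinoic acid receptors bind, AGGTCA (in 16.2% of all windows), AGTTCA (14.0%), GGGTCA (13.7%) and GGTTCA (10.4%). Neither of the printed windows held one. Direct repeats of these with a spacer of 1, 2 or 5 bases were in 0.224%, 0.27% and 0.098% of all windows and in 0 of the 8 windows listed for 5 of the members (Dhrs3, Cyp26b1, Crabp1, Aldh1a2 and Aldh1a1).

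**Figure D1:**
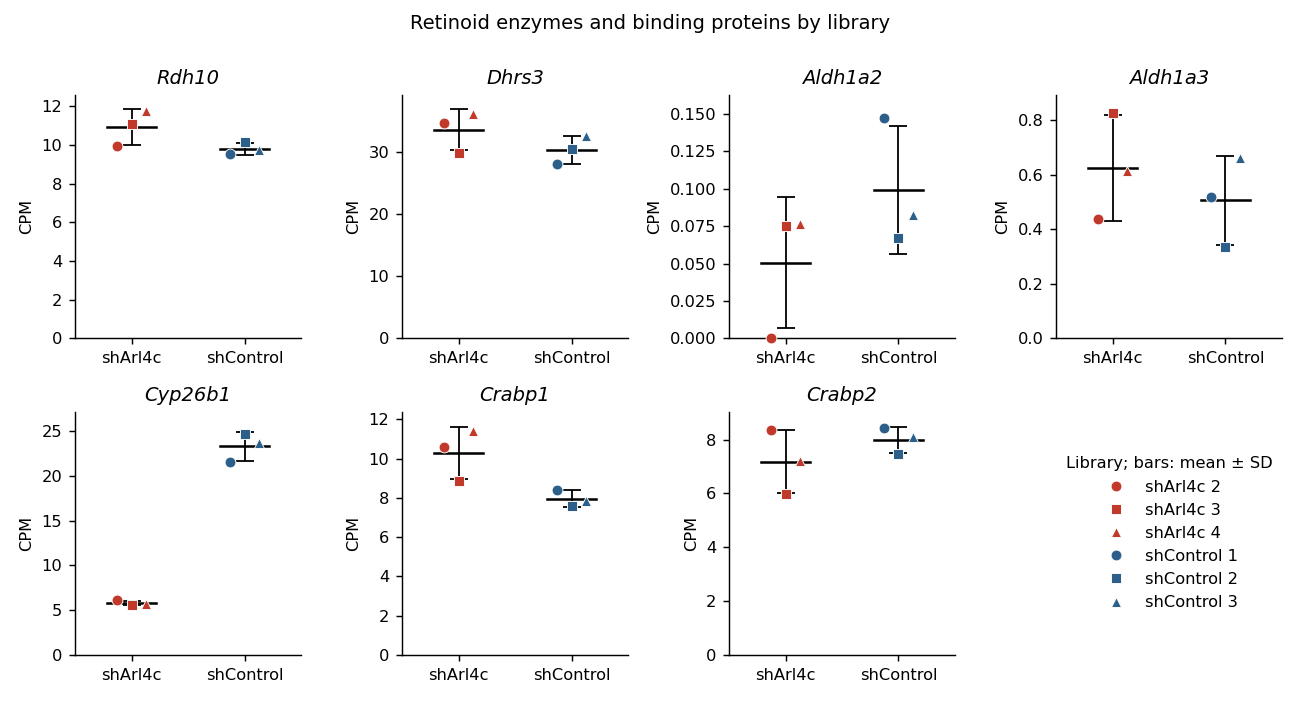
CPM of the 7 listed members in each library (points), with the mean and SD of each group (bars); each panel has its own axis from 0. Cyp26b1 stood at 5.62 to 6.10 CPM in shArl4c and 21.6 to 24.7 CPM in shControl, and of the other panels only Crabp1 has groups that do not overlap.

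The enzymes that convert retinol and retinaldehyde into each other did not pass the test. Rdh10, encoding the dehydrogenase that makes retinaldehyde, stood at 9.95, 11.1 and 11.8 CPM in shArl4c 2, 3 and 4, against 9.52, 10.2 and 9.76 CPM in shControl 1, 2 and 3. The groups overlapped, since shArl4c 2 lay below shControl 2. The log2 fold change was 0.14 (95% interval -0.07 to 0.35, limma adjusted p = 0.303). Dhrs3, encoding the reductase that works the opposite way and the most abundant member, stood at 34.7, 29.9 and 36.3 CPM in shArl4c 2, 3 and 4, against 28.1, 30.5 and 32.7 CPM in shControl 1, 2 and 3. Libraries shArl4c 2 and 4 lay above all shControl libraries, and shArl4c 3 lay inside their range. The log2 fold change was 0.14 (95% interval -0.02 to 0.30, limma adjusted p = 0.182) with all libraries. Without shArl4c 3 it was 0.22, with a limma adjusted p of 0.00790, so that 1 library decides whether Dhrs3 is called.

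The retinaldehyde dehydrogenases were near the limit of detection. Aldh1a2 had 0, 1 and 1 reads in shArl4c 2, 3 and 4, against 2, 1 and 1 reads in shControl 1, 2 and 3. All of these counts are below the 3 reads that a count of 0 allows, so no direction is given. Aldh1a3 had 6, 11 and 8 reads in shArl4c 2, 3 and 4, or 0.436, 0.824 and 0.612 CPM, against 7, 5 and 8 reads in shControl 1, 2 and 3, or 0.517, 0.336 and 0.662 CPM. The highest library was shArl4c 3, and the other 2 shArl4c libraries lay inside the range of shControl. Fitted with no filter on low values, Aldh1a3 had a log2 fold change of 0.11 (limma adjusted p = 0.688). A difference was not detectable at this depth for either gene.

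Of the binding protein genes, Crabp1 was higher in shArl4c cells and Crabp2 did not pass the test. Crabp1 stood at 10.6, 8.84 and 11.4 CPM in shArl4c 2, 3 and 4, against 8.41, 7.60 and 7.86 CPM in shControl 1, 2 and 3. Every shArl4c library lay above every shControl library, shArl4c 3 by the least. The means were 10.3 ± 1.31 CPM in shArl4c and 7.96 ± 0.417 CPM in shControl (SD, n = 3 each), a ratio of 1.29, and the log2 fold change was 0.33 (SE 0.11, 95% interval 0.09 to 0.56, limma adjusted p = 0.0271). This call was lost without shArl4c 2, shArl4c 4, shControl 2 or shControl 3 (limma adjusted p of 0.0778, 0.141, 0.0995 and 0.0786) and with DESeq2 (adjusted p = 0.117), and was kept by edgeR (adjusted p = 0.0408). Without shArl4c 3 the log2 fold change was 0.42 (limma adjusted p = 0.00151).

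Crabp2, whose product hands retinoic acid to its nuclear receptors, stood at 8.35, 5.996 and 7.19 CPM in shArl4c 2, 3 and 4, against 8.41, 7.46 and 8.11 CPM in shControl 1, 2 and 3. The groups overlapped, with shArl4c 3 the lowest library. The log2 fold change was -0.15 (95% interval -0.40 to 0.11, limma adjusted p = 0.396), and -0.04 without shArl4c 3. Per length of transcript, Crabp1 made up 59.6%, 63.1% and 64.8% of the sum of both genes in shArl4c 2, 3 and 4, against 53.7%, 54.2% and 52.9% in shControl 1, 2 and 3. The share was higher in each of the shArl4c libraries than in any shControl library, with means of 62.5 ± 2.66% in shArl4c and 53.6 ± 0.616% in shControl (SD, n = 3 each). A two-sided exact permutation test gave p = 0.1, the smallest that 3 against 3 libraries allow.

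Of the 5 tested members, 1 was lower and 1 higher in shArl4c, beside 18.0% lower and 18.9% higher of all tested genes. The share of members called, 2 of 5, and the 2 of 5 whose groups did not overlap (46.8% of all genes), are thus near those of all genes, and the result about the members is the size of the change in Cyp26b1. Without shArl4c 3, 1 member was lower and 2 were higher, and 6625 genes were called among all tested, against 5445 with all libraries.

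**Figure D2:**
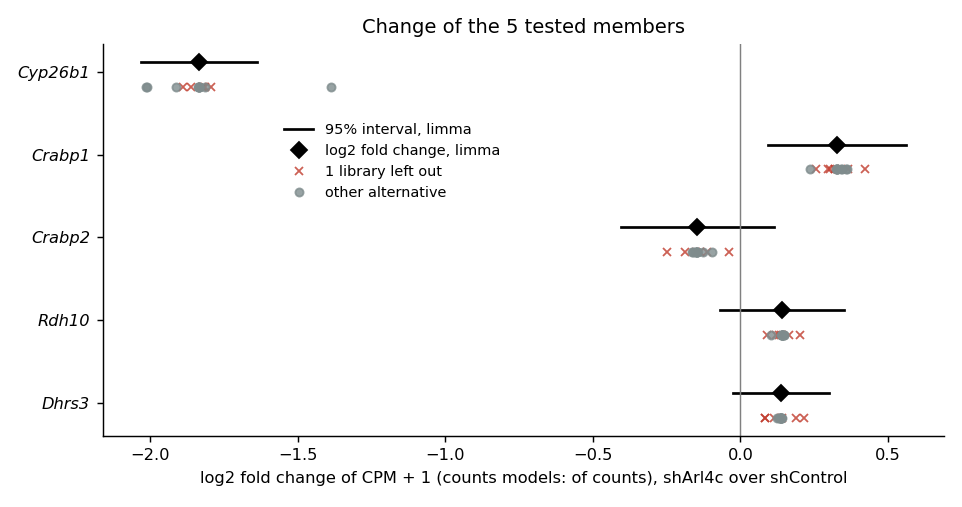
Log2 fold change of the 5 tested members, shArl4c over shControl (diamonds, with limma's 95% interval), and its value with 1 library left out (crosses) or under the other alternatives (circles). Cyp26b1 lay between -2.01 and -1.39 throughout, Crabp1 between 0.23 and 0.42, and the intervals of Crabp2, Rdh10 and Dhrs3 span 0.

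Levels were compared between members per kb of the longest annotated transcript, which need not be the one expressed. In shArl4c, Dhrs3 was the highest (14.4 ± 1.42 CPM per kb), followed by Crabp1 (12.8 ± 1.63), Crabp2 (7.71 ± 1.26), Rdh10 (3.05 ± 0.259), Cyp26b1 (1.29 ± 0.0552), Aldh1a3 (0.181 ± 0.0566) and Aldh1a2 (0.0223 ± 0.0193; SD, n = 3). In shControl the order was Dhrs3 (13.0 ± 0.976 CPM per kb), Crabp1 (9.92 ± 0.520), Crabp2 (8.59 ± 0.521), Cyp26b1 (5.19 ± 0.357), Rdh10 (2.74 ± 0.0889), Aldh1a3 (0.147 ± 0.0474) and Aldh1a2 (0.0438 ± 0.0188; SD, n = 3). Cyp26b1 and Rdh10, one gene for breakdown and one for synthesis, thus changed places between the groups. Among neighbours in these orders, the libraries of Dhrs3 and Crabp1 overlapped in shArl4c (12.8 to 15.5 and 11.0 to 14.2 CPM per kb), and no other neighbours overlapped in either group.

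**Figure D3:**
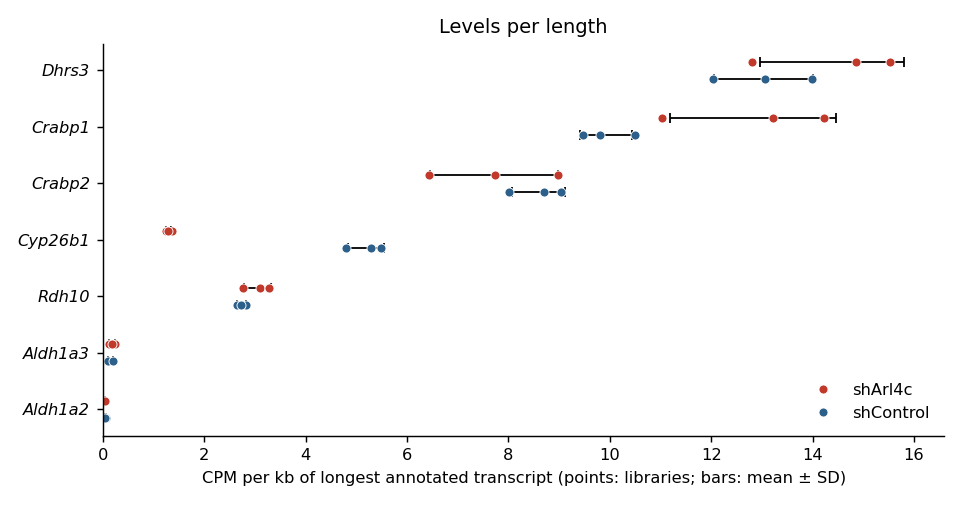
CPM per kb of the longest annotated transcript for the 7 listed members, with libraries as points and mean ± SD as bars. Cyp26b1 lies above Rdh10 in shControl (5.19 against 2.74) and below it in shArl4c (1.29 against 3.05).

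The other CYP26 genes were sparse. Cyp26a1, encoding the retinoic acid-induced relative of CYP26B1, had 0, 3 and 2 reads in shArl4c 2, 3 and 4, against 13, 7 and 7 reads in shControl 1, 2 and 3. All shArl4c libraries lay below all shControl libraries, and the fit with no filter gave a log2 fold change of -0.56 (limma adjusted p = 0.00402). The shArl4c counts do not exceed the 3 reads that a count of 0 allows. Cyp26c1 had 3 reads in all over the shArl4c libraries and 4 over the shControl libraries. Cyp2s1, of the list of other breakdown and delivery genes and also below the filter, went the other way from Cyp26a1. It had 14, 8 and 13 reads in shArl4c 2, 3 and 4, against 6, 6 and 4 in shControl 1, 2 and 3. The fit with no filter gave it a log2 fold change of 0.42 (limma adjusted p = 0.0464). These genes are named with their values known. Of the 3 tested genes in the list of other breakdown and delivery genes, 2 rose and 1 fell. Of all tested genes, 18.9% were higher and 18.0% lower. The median of these 3 genes is the value of Por, a log2 fold change of 0.39, against 0.01 for all tested genes. Fabp5, encoding a fatty acid binding protein that can carry retinoic acid to PPAR delta, stood at 155, 131 and 151 CPM in shArl4c 2, 3 and 4, against 302, 290 and 311 CPM in shControl 1, 2 and 3. It was 2.07-fold lower in shArl4c (log2 fold change -1.05, SE 0.06, limma adjusted p = 4.17e-10). Por, the reductase that supplies electrons to CYP26 and other P450 enzymes, rose to 108 ± 6.42 CPM in shArl4c, against 82.5 ± 1.85 CPM in shControl (limma adjusted p = 3.78e-06). Ugt1a6a, a glucuronosyltransferase gene, rose to 72.7 ± 3.11 CPM in shArl4c, against 55.1 ± 3.31 CPM in shControl (limma adjusted p = 1.13e-05); it shares exons with other Ugt1a genes, so its reads are uncertain.

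Genes of retinoid uptake and storage included Stra6 and Lrp2, with large differences in opposite directions. Of 7 tested genes of 19 listed, 3 rose, 1 fell and 3 did not pass, beside 18.9% higher and 18.0% lower of all tested genes (median log2 fold change 0.15). An additional gene, Stra6, passed the filter of 1 CPM only through shArl4c, where it is high, and is left out of these counts. Stra6, encoding the membrane receptor for retinol-binding protein, stood at 2.47, 3.22 and 2.83 CPM in shArl4c 2, 3 and 4, against 0.295, 0.269 and 0.165 CPM in shControl 1, 2 and 3. All shArl4c libraries were far above the shControl libraries, which held 10 reads of Stra6 in all, against 114 in shArl4c. The ratio of means was 11.7, and the means were 2.84 ± 0.377 CPM in shArl4c and 0.243 ± 0.0686 CPM in shControl. Lrp2, encoding megalin, an endocytic receptor that takes up retinol-binding protein in the kidney, stood at 2.904, 3.15 and 2.37 CPM in shArl4c 2, 3 and 4, against 27.3, 29.9 and 28.3 CPM in shControl 1, 2 and 3. It was 10.1-fold lower in shArl4c (log2 fold change -2.96, SE 0.11, limma adjusted p = 6.31e-14). Scarb1, a lipoprotein receptor gene whose product also takes up carotenoids, rose to 129 ± 7.995 CPM in shArl4c, against 112 ± 1.83 CPM in shControl (limma adjusted p = 0.00309, and 0.0510 in limma without trend and robust moderation). Counts with a library left out were made only with Stra6 included, and no call is read from Stra6. On that basis 4 rose and 1 fell, against 5 and 1 without shArl4c 3 and 2 and 1 without shControl 1.

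**Figure D4:**
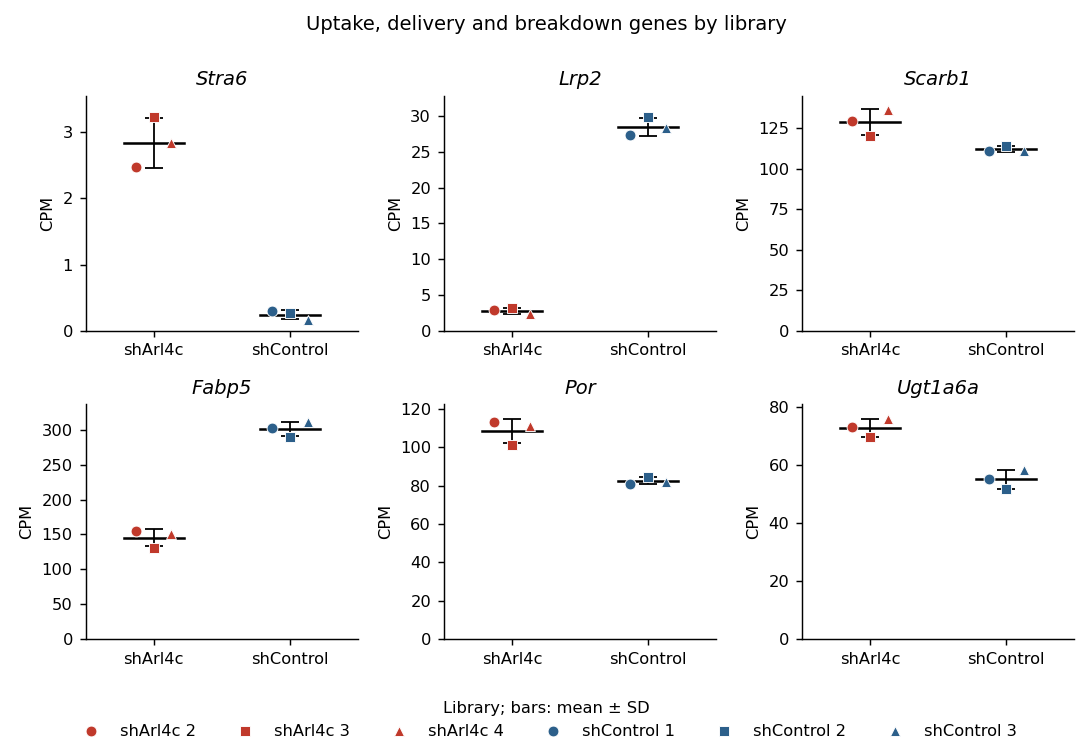
CPM of the 6 genes named in the uptake list and in the breakdown and delivery list, by library, with mean and SD; each panel has its own axis from 0. Stra6 (2.47 to 3.22 CPM in shArl4c, 0.165 to 0.295 in shControl) and Lrp2 (2.37 to 3.15 in shArl4c, 27.3 to 29.9 in shControl) lie apart in opposite directions.

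Among other enzymes that can act on retinol or retinaldehyde, 16 of 27 listed genes were tested, of which 5 rose and 11 did not pass by limma (median log2 fold change 0.09). This share called, 31.2%, is near the 36.9% of all tested genes. Without Rdh9, which passed the filter through 1 group only, 5 of 15 rose (median 0.08). The count of falls was 0 by limma, edgeR and DESeq2, and 1 gene, Dhrs9, was lower at an unadjusted p under 0.05 by limma and by edgeR; without shArl4c 3, 7 of 15 rose. Aox1, encoding an aldehyde oxidase, rose to 71.8 ± 11.1 CPM in shArl4c, against 43.8 ± 0.796 CPM in shControl (log2 fold change 0.69, limma adjusted p = 0.000191), with shArl4c 3 the highest at 84.6 CPM. Akr1b3, encoding an aldose reductase, rose to 118 ± 7.17 CPM in shArl4c, against 89.6 ± 2.74 CPM in shControl. Cyp1b1, encoding a P450 enzyme that can oxidise retinol, rose to 313 ± 2.50 CPM in shArl4c, against 273 ± 5.94 CPM in shControl. Of 12 tested aldehyde dehydrogenase genes outside the members, 4 rose, 2 fell and 6 did not pass (median log2 fold change 0.11). The share called was 50%, beside 36.9% of all tested genes (18.9% higher and 18.0% lower). Without shArl4c 3, 6 rose and 2 fell. Aldh3a1, an aldehyde dehydrogenase gene of the cornea and of stress responses, rose 4.73-fold to 25.7 ± 1.38 CPM in shArl4c, against 5.43 ± 0.268 CPM in shControl (log2 fold change 2.05, SE 0.09, limma adjusted p = 1.51e-12). Aldh1l2, encoding a mitochondrial folate enzyme, fell to 225 ± 11.0 CPM in shArl4c, against 464 ± 10.6 CPM in shControl, and Aldh18a1, encoding an enzyme of proline synthesis, to 146 ± 6.27 CPM in shArl4c, against 223 ± 11.9 CPM in shControl. Neither is known as an enzyme of retinoid metabolism.

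Of 15 tested receptor and cofactor genes of 18 listed, 5 rose, 5 fell and 5 did not pass. This stands beside 18.9% higher and 18.0% lower of all tested genes, and the list had a median log2 fold change of -0.05. Nr2f1, which passed the filter only through shControl, where it is high, is left out of the counts of this list. Counts with a library left out include it, so they show only shifts between fits and no call is read from Nr2f1. On that basis 5 rose and 6 fell, against 5 and 7 without shArl4c 3. Without shArl4c 4, shControl 1 or shControl 2, 3 rose and 6 fell. Among the retinoic acid receptor genes, chosen here after their values were seen, Rarg rose to 313 ± 14.6 CPM in shArl4c, against 259 ± 11.3 CPM in shControl (log2 fold change 0.28, limma adjusted p = 7.01e-05). Rara averaged 64.4 ± 2.07 CPM in shArl4c and 67.1 ± 1.51 CPM in shControl and did not pass (limma adjusted p = 0.391). Rarb, a classic target of retinoic acid, was below the filter, with 12, 9 and 6 reads in shArl4c 2, 3 and 4, against 9, 15 and 15 in shControl 1, 2 and 3. Nr2f1 and Nr2f2 encode orphan nuclear receptors that can bind the same elements as RAR. Nr2f1 stood at 0.581, 0.0750 and 0.459 CPM in shArl4c 2, 3 and 4, against 5.02, 5.25 and 5.46 CPM in shControl 1, 2 and 3, and the groups did not overlap. Nr2f2 rose to 273 ± 5.84 CPM in shArl4c, against 194 ± 4.04 CPM in shControl (log2 fold change 0.49, limma adjusted p = 8.74e-09). Nrip1, a corepressor gene that retinoic acid induces, fell to 26.1 ± 0.882 CPM in shArl4c, against 36.4 ± 1.80 CPM in shControl.

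Genes known to respond to retinoic acid were described from a list of 40, of which 3 are members. Of the 21 others tested, Stra6 left out as above, 8 rose, 1 fell and 12 did not pass, beside 36.9% called among all genes, with a median log2 fold change of 0.09. Tgm2, a transglutaminase gene, rose to 337 ± 13.0 CPM in shArl4c, against 244 ± 4.04 CPM in shControl (log2 fold change 0.46, limma adjusted p = 3.09e-08). Pdgfra, a growth factor receptor gene, rose 1.69-fold (limma adjusted p = 1.25e-11) and Egr1, an immediate-early gene, 1.48-fold (limma adjusted p = 4.61e-08). The fall among these 21 genes was that of Nrip1. The 3 members on the list are Cyp26b1, which fell as given above, Crabp2 and Dhrs3. Cyp26a1, also on the list, was below the filter and is given above. Counts with a library left out include Stra6, from which no call is read. On that basis 9 rose and 1 fell, against 11 and 1 without shArl4c 3.

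Of the relatives of the CRABP proteins in the family of lipid-binding proteins, Fabp5 fell as given above. Fabp4 stood at 0.653, 0.974 and 0.765 CPM in shArl4c 2, 3 and 4, against 2.88, 2.49 and 2.23 CPM in shControl 1, 2 and 3. Fabp3 stood at 0.799, 0.375 and 0.842 CPM in shArl4c 2, 3 and 4, against 1.48, 1.34 and 1.32 CPM in shControl 1, 2 and 3. Neither gene's groups overlapped, but both passed the filter of 1 CPM only through shControl, where they are high, so no count or test is given for them.

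**Figure D5:**
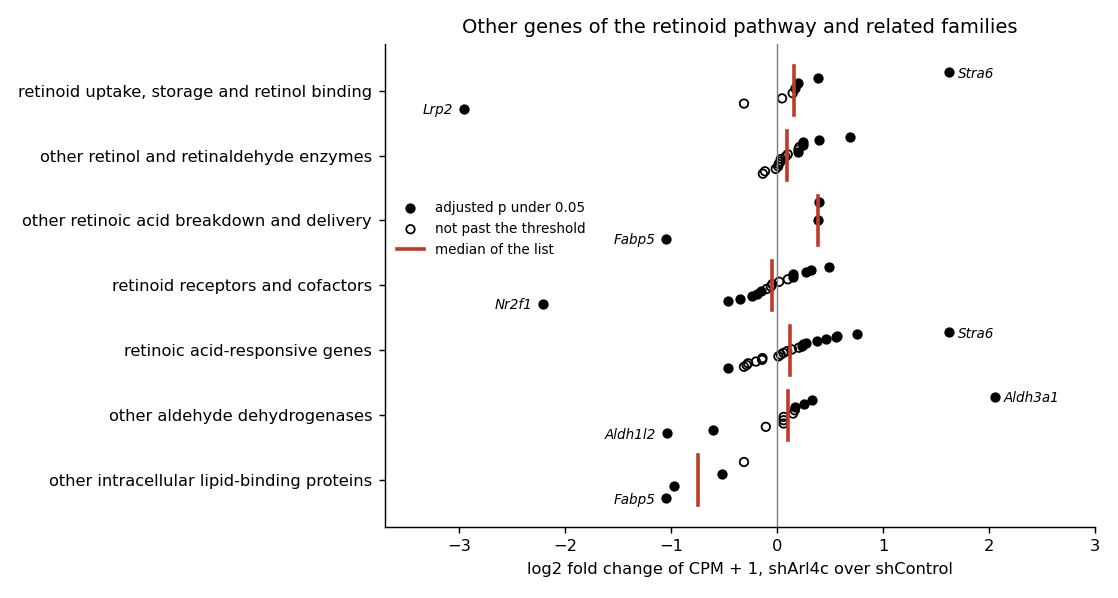
Log2 fold change, shArl4c over shControl, of the tested genes in each list, members left out (filled points passed limma's threshold of 0.05, open points did not, red lines are list medians). Some genes are in more than 1 list. Genes at least 2-fold apart on the log2(CPM + 1) scale are named. Stra6, Rdh9, Nr2f1, Fabp3 and Fabp4, which passed the filter through 1 group only, are drawn and enter the medians. The drawn medians can thus differ from those in the text. These genes are filled or open by the same rule, but no call is read from them. Counts in the text that include Stra6 or Nr2f1 say so.

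The tested genes whose values over the 6 libraries lay nearest to those of Cyp26b1, by Euclidean distance of log2(CPM + 1) centred on shControl, were Mid2, a ubiquitin ligase gene (distance 0.16), Dchs1, a large cadherin gene (0.18), and Alkal1, a receptor tyrosine kinase ligand gene (0.20). Mid2 averaged 8.08 ± 0.904 CPM in shArl4c and 31.8 ± 0.967 CPM in shControl, Dchs1 15.4 ± 0.537 CPM in shArl4c and 61.1 ± 2.16 CPM in shControl, and Alkal1 2.29 ± 0.361 CPM in shArl4c and 10.9 ± 0.737 CPM in shControl (SD, n = 3 each). For Crabp1 they were Hist1h3b (distance 0.05), Sys1 (0.09) and Adssl1 (0.09), of which Adssl1 did not pass limma's test (adjusted p = 0.154, and 0.0373 without shArl4c 3). Hist1h3b belongs to a cluster of near-identical histone genes, so its reads are uncertain. With 3 libraries per group, many genes share such a pattern.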

How the data were processed

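RNA from mDE6 cells was measured in 6 libraries, 3 per group. The authors deposited 1 table of CPM (counts per 1e+06 reads of a scaled library size). The submitters' processing notes name Trimmomatic 0.38, RSEM 1.3.0, Bowtie2, edgeR and GRCm39 without settings. All values (100%) were whole multiples of the smallest value of their column, within 0.001 of a read, so read counts were recovered. Of 22032 identifiers, 21880 matched a gene symbol.

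The 14740 genes that averaged 1 CPM or more were fitted with limma 3.58.1 in R 4.3.3 on log2(CPM + 1), shArl4c against shControl with no covariate, with trend and robust moderation. Benjamini-Hochberg adjustment covered every tested gene, with a threshold of 0.05. The steps were tested on simulated counts.

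The alternatives were pseudocounts of 0.5 and 5, no filter or one of 5 CPM, rescaling by TMM (which gave back the deposited scale), median of ratios or quantiles, plain limma, each library left out in turn, and edgeR 4.0.16 and DESeq2 1.42.0 on the recovered reads. The members, lists and rules were chosen with earlier results of these data known, and the share without length scaling was added after seeing the data. Named genes were the 8 members, Arl4c, the 3 genes with the smallest p past the threshold in each list, and the 3 nearest patterns of each of the 2 called members with the largest change. Transcript lengths came from a GENCODE release on GRCm38 and promoter windows from RefSeq (GRCm38.p6). The results of 2 further listed genes are not reported here.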

Additional observations from a re-analysis of the deposited data

How the results depend on the processing

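The fall of Cyp26b1 passed the threshold in all 16 alternatives run, with log2 fold changes of -2.01 to -1.39. Of the members, 2 were called, against 1 with DESeq2 and 1 to 3 with a library left out. The counts here for the list of uptake, storage and retinol binding include Stra6, from which no call is read. On that basis 5 genes were called. Limma without trend and robust moderation called 3, and fits with a library left out called 3 to 6. Of the list of other breakdown and delivery genes, 3 were called, against 5 with no filter, which tests more genes. Of the 2 genes left in the lipid-binding protein list without Fabp3 and Fabp4, 1, Fabp5, was called, as it was with a filter of 5 CPM. The cause of the other shifts was not tested. No direction reversed in the alternatives run among the genes named by the rule above. Other genes in the text, such as Rara and Rarg, were not checked for this. Over all genes, 5445 were called, and 4347 to 6625 with a library left out. No paired analysis was possible because the column numbers (1 to 3 and 2 to 4) could not be tied to the replicate numbers of the labels. Depth limits Aldh1a2 most, with 2 reads over the shArl4c libraries and 4 over the shControl libraries.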
